A study of Bos taurus with 8 samples.

Results

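Heat shock proteins and their co-chaperones were measured in the semitendinosus, a hind-limb muscle, of 12 bulls aged 15 months: 4 Hereford, 4 Holstein-Friesian and 4 Limousin. The genes were taken by symbol, as those beginning with HSPA, HSPB, HSPD, HSPE, HSPH, HSP90, DNAJ or BAG together with CRYAB, HSF1 and HSF2. A RefSeq gene table held 82 such symbols, 49 of them had a probe matched by transcript accession, and 47 passed the filter on dim probes, out of 6642 named genes that passed. Each probe had 16 readings, 1 per dye and array. It was kept when 4 or more of them stood well above background, and a gene was read from its brightest kept probe. DNAJB3, with 0 such readings, and HSPB9, with 1, did not pass. Just inside the filter stood HSPA1L with 8 readings and DNAJC16 with 9, followed by BAG4 and DNAJC5B with 15, and the other 43 members had all 16. The other 33 symbols, CRYAB, HSF1, HSPB1, HSPA9, HSP90AB1 and DNAJB4 among them, had no matched probe and were not analysed here.

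Heat shock proteins of the Hsp70 family bind unfolded stretches of protein and release them in a cycle driven by ATP. DNAJ proteins bring substrates to Hsp70 and start ATP hydrolysis, and BAG and Hsp110 proteins help exchange the nucleotide so that the substrate is let go. In skeletal muscle these proteins keep the contractile apparatus folded, and many of their genes are switched on by heat shock factors during heat, exercise or other protein stress. Among the 47 genes were 8 of the Hsp70 and Hsp110 families, 25 of the DNAJ family, 3 BAG genes, 2 of the Hsp90 family, the mitochondrial pair HSPD1 and HSPE1, 4 small heat shock proteins, the transcription factor HSF2 and 2 genes that share the HSPB prefix, HSPBAP1 and HSPBP1.

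The study set muscle of the well-marbled breeds, Hereford and Holstein-Friesian, against lean Limousin muscle on 8 two-colour arrays. Each array carried 1 marbled bull and 1 Limousin bull, and the same 4 Limousin bulls, numbered 1 to 4, stood on both slides, so the Hereford and Holstein-Friesian ratios share their control RNA. Hereford was always in the red dye Cy5 against Limousin in Cy3, and Holstein-Friesian always in the green dye Cy3 against Limousin in Cy5. Breed, dye and slide therefore cannot be told apart from the arrays of 1 breed. Herd, feeding and treatment are not given in the sources used here, and a breed is represented by 4 animals. The median net signal was 97 to 139 intensity units in Hereford and 30.5 to 46.5 in Holstein-Friesian, against 63 to 88 in Limousin in Cy3 and 96.5 to 118 in Limousin in Cy5. All values below are log2 ratios of the breed over Limousin unless said otherwise, so 1 is a 2-fold higher level, and the 4 values of a breed are given in the order of Limousin bulls 1 to 4. A gene is said to have risen or fallen where its limma adjusted p over 17061 probes was under 0.05. The muscle fibre markers ACTA1, CKM and MB were well above background in all 16 readings.

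The first question was how these genes stood in Hereford muscle. Hereford muscle held more mRNA of 4 chaperone genes than Limousin muscle: DNAJA1, DNAJB1 and HSPH1, which work together in the cytosolic Hsp70 cycle, and HSPA5, the Hsp70 of the endoplasmic reticulum. The rises were 2.16-fold for DNAJA1, 2.50-fold for DNAJB1, 2.07-fold for HSPH1 and 1.50-fold for HSPA5. No member fell. The 4 called members are 8.51% of the 47, against 7.14% of all probes called in either direction, 3.39% higher and 3.75% lower. Over the 6642 named genes, each read from its brightest probe, 7.36% were called, 3.39% higher and 3.97% lower. The median ratio of the members was 0.106, beside 0.0075 over all probes, and 24 of 47 were above 0. A share of 29.8% of the members (14 of 47) was above 0 on all 4 Hereford arrays, against 13.7% of all probes, and 3 members were below 0 on all 4, which is 6.38% against 13.9%.

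DNAJA1, a J-domain protein that hands unfolded proteins to cytosolic Hsp70, had Hereford ratios of 1.70, 0.88, 0.78 and 1.09. Its mean was 1.11 (SD 0.41, n = 4 arrays, limma adjusted p = 0.018). Every Hereford array lay well above 0, and the array with Limousin bull 1 was the highest. In normalised log2 intensity, the 4 Hereford bulls read 11.24, 10.28, 10.30 and 10.66 in Cy5, all above the 9.75 to 9.90 of the Limousin bulls in the same dye.

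DNAJB1, the heat-inducible Hsp40 that stimulates Hsp70 and its disaggregation of proteins, had Hereford ratios of 0.87, 1.04, 2.35 and 1.02. Its mean was 1.32 (SD 0.69, n = 4 arrays, limma adjusted p = 0.039). The array with Limousin bull 3 stood far above the others, which lay close together. The Hereford bulls read 10.01, 10.64, 11.49 and 10.25 in log2 intensity in Cy5 and the Limousin bulls 8.91 to 9.53, so the breeds did not overlap within that dye.

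HSPH1, an Hsp110 protein that acts as nucleotide exchange factor for Hsp70, had Hereford ratios of 1.80, 0.89, 0.94 and 0.58. Its mean was 1.05 (SD 0.52, n = 4 arrays, limma adjusted p = 0.043). The first array was again the highest, as for DNAJA1. Hereford bulls read from 10.68 to 11.82 in log2 intensity in Cy5, above the Limousin bulls at 10.03 to 10.39.

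HSPA5, known as BiP, holds newly made secretory proteins in the endoplasmic reticulum. Its Hereford ratios were 0.38, 0.38, 0.66 and 0.90, with a mean of 0.58 (SD 0.25, n = 4 arrays, limma adjusted p = 0.0239). Its lowest Hereford level in Cy5, 12.41 in log2 intensity, lay above the highest Limousin level in that dye, 12.26.

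**Figure D1:**
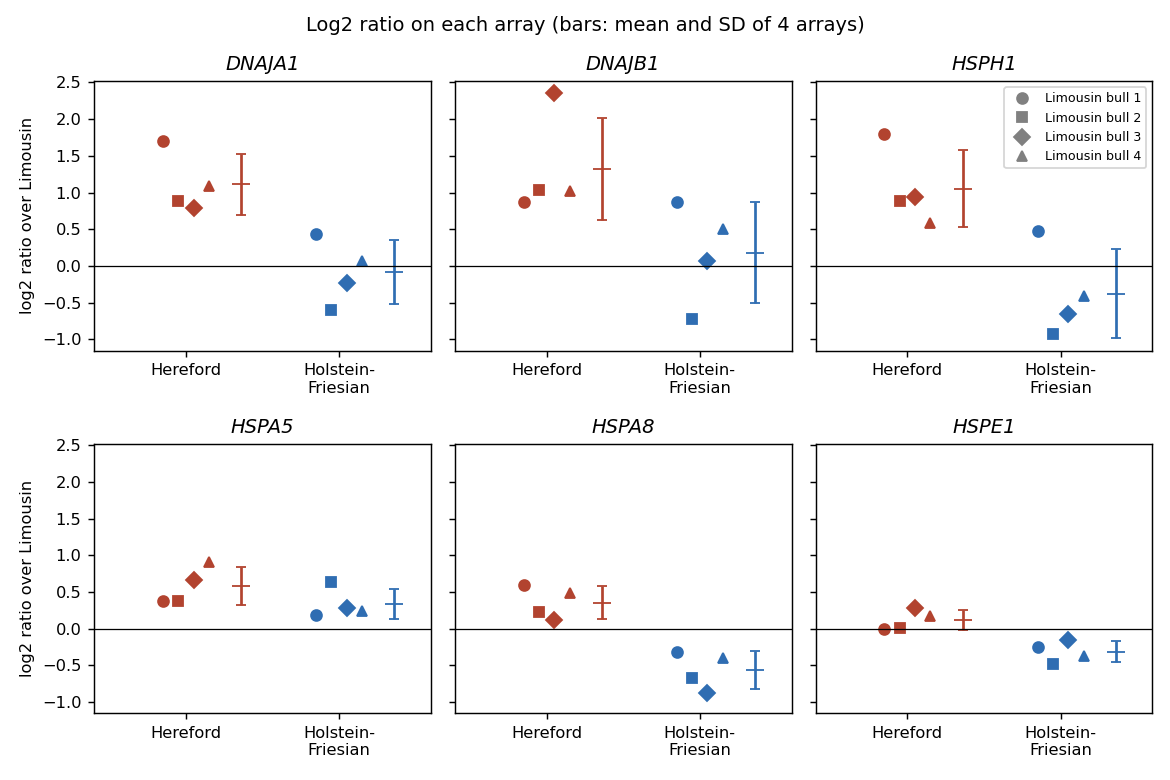
Log2 ratio over Limousin on each array for the 6 genes called in a breed, with Hereford in red and Holstein-Friesian in blue and the Limousin bull shown by the symbol; bars are the mean and SD of 4 arrays. DNAJA1, DNAJB1, HSPH1 and HSPA5 lie above 0 on all 4 Hereford arrays, while HSPA8 and HSPE1 lie below 0 on all 4 Holstein-Friesian arrays.

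The Hereford calls were close to the threshold. Read in the same dye, that is Hereford in Cy5 against the same Limousin bull in Cy5 on the other slide, DNAJB1 stood at 1.40 (limma adjusted p = 0.0443), while DNAJA1 at 0.78 (0.0605), HSPH1 at 0.87 (0.0907) and HSPA5 at 0.48 (0.0632) no longer passed, while 4% of all probes did. With the 4 Hereford arrays fitted alone, 0 of 47 members passed in limma (19 had an unadjusted p under 0.05 with all arrays in the fit), and 0.158% of all probes did. The share of all probes with an unadjusted p under 0.05 is not given here. Such unadjusted counts, here and below, therefore do not set the members apart from other genes. Without both arrays of Limousin bull 1, DNAJA1 (adjusted p = 0.0258), HSPH1 (0.0265) and HSPA5 (0.0396) kept their call and DNAJB1 (0.0534) did not. None of these 4 genes passed in limma without bull 2, 3 or 4, where their means lay between 0.47 and 1.42 and their adjusted p between 0.0569 and 0.15. DNAJB1 stood at 0.97 without bull 3, whose array is its highest (adjusted p = 0.117).

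The second question was how the same genes stood in Holstein-Friesian muscle. Here 2 of 47 members fell and none rose: HSPA8, the constitutive Hsp70 of the cytosol, was 1.48-fold lower than in Limousin, and HSPE1, the lid of the mitochondrial chaperonin, 1.24-fold lower. These are 4.26% of the members, against 6.45% of all probes called in either direction, 3% higher and 3.45% lower. Over the named genes 7.5% were called, 4.02% higher and 3.48% lower. The median of the members was -0.048, beside -0.015 over all probes, and 18 of 47 were above 0. Below 0 on all 4 arrays were 12 members (25.5%), against 20.7% of all probes, and above 0 on all 4 were 5 (10.6%), against 15.7%.

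HSPA8 had Holstein-Friesian ratios of -0.32, -0.67, -0.88 and -0.39. Its mean was -0.57 (SD 0.26, n = 4 arrays, limma adjusted p = 0.0291). In Hereford its ratios were 0.60, 0.22, 0.11 and 0.48, with a mean of 0.36 that missed the threshold (limma adjusted p = 0.101). All 8 arrays thus fell on the side of their breed, with no overlap. In the same dye the Hereford values were 0.55, 0.03, -0.22 and 0.27, of which 1 lay below 0. Holstein-Friesian bulls read from 13.36 to 13.57 in log2 intensity in Cy3, below the 13.70 to 13.94 of the Limousin bulls in Cy3.

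HSPE1, which caps the Hsp60 barrel while it folds mitochondrial proteins, had Holstein-Friesian ratios of -0.25, -0.49, -0.15 and -0.37. Its mean was -0.31 (SD 0.15, n = 4 arrays, limma adjusted p = 0.0498). All 4 arrays were below 0 and within a narrow range. HSPD1, the Hsp60 barrel itself, had ratios of -0.42, -0.42, 0.08 and -0.40, with a mean of -0.29 (SD 0.24, limma adjusted p = 0.258). In the RefSeq gene order HSPE1 is the next protein-coding gene after HSPD1. The third Holstein-Friesian array was the highest for both genes.

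Read in the same dye, Holstein-Friesian in Cy3 against the same Limousin bull in Cy3, HSPA8 stood at -0.37 (limma adjusted p = 0.116) and HSPE1 at -0.16 (0.268), and neither passed. In that reading DNAJB6 at 0.44 (limma adjusted p = 0.0423) and HSPA13 at 0.68 (0.0255) passed as higher, among 5.96% of all probes. With the Holstein-Friesian arrays alone, 0 of 47 passed in limma (15 had an unadjusted p under 0.05 with all arrays), against 4.92% of all probes. With the deposited ratios HSPE1 did not pass (-0.34, adjusted p = 0.116) and HSPA13 was called higher (0.74, 0.0294), and among probes with all 16 readings HSPE1 did not pass either (0.0679). Without bull 1 HSPA8 kept its call at -0.65 (adjusted p = 0.0387) and HSPE1 did not (0.0966); without bull 2, 3 or 4 neither passed, with adjusted p from 0.0757 to 0.222. With each array centred on its median in place of loess, 30 members were called, 3 higher and 27 lower, and so were 39.1% of all probes, 11.4% higher and 27.8% lower, while the median of all probes moved to -0.20 and that of the members to -0.60.

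**Figure D2:**
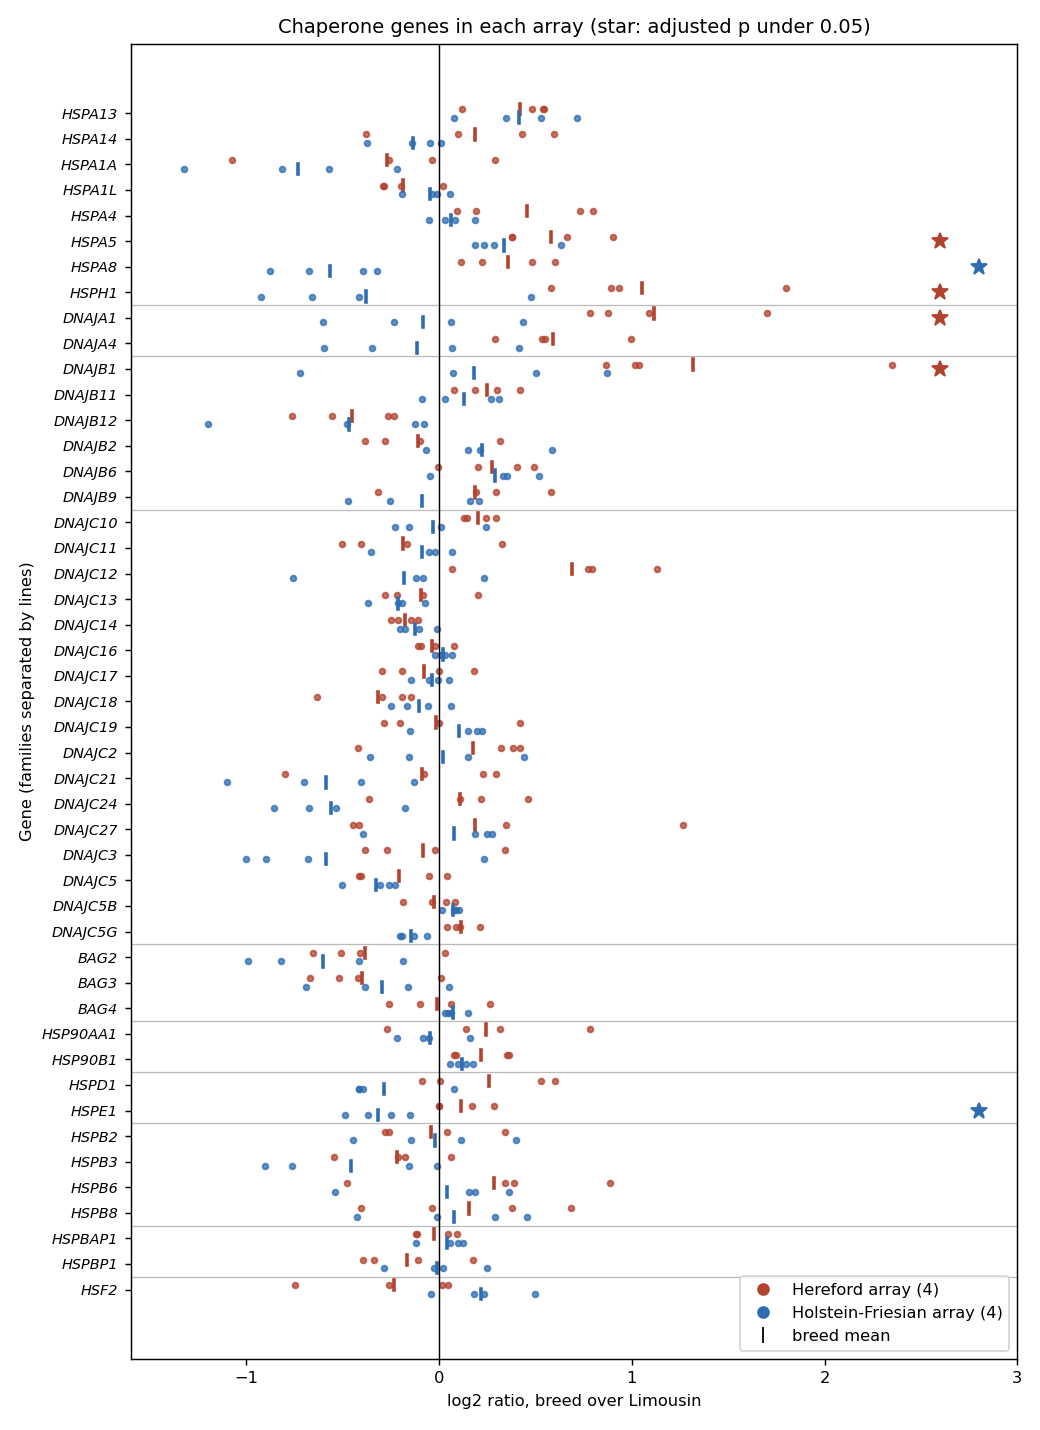
Log2 ratio over Limousin of the 47 genes, grouped by family with lines between families; dots are single arrays, 4 Hereford in red and 4 Holstein-Friesian in blue, short vertical bars are breed means and stars mark an adjusted p under 0.05 in the colour of the breed. The 4 Hereford stars fall on genes above 0 and the 2 Holstein-Friesian stars on genes below 0, while most of the 47 means lie within 0.5 of 0.

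Mean ratios were over 0.5 in size in 6 of 47 members in each breed. With loess ratios across dyes on all 8 arrays, each gene read from its brightest probe, the remaining Hsp70 and Hsp110 genes showed no change that passed in either breed. HSPA1A, the classic stress-inducible Hsp70, had Hereford ratios of -1.08, -0.04, 0.29 and -0.26 and Holstein-Friesian ratios of -0.57, -0.82, -0.22 and -1.33. Its means were -0.27 (SD 0.58, limma adjusted p = 0.548) and -0.73 (SD 0.47, 0.104). Across dyes its Hereford arrays spread over both sides of 0, while in the same dye 0 of the Hereford values were above 0. The difference, Holstein-Friesian minus Hereford, was -0.46 across dyes and 0.40 in the same dye (limma adjusted p = 0.503). Limousin bull 1 had the highest level of the Limousin bulls in both dyes, 12.98 and 12.71 in log2 intensity. HSPA1A has near-identical copies and HSPA1L as its neighbour, so its probe may read more than 1 gene.

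HSPA13, an Hsp70-like protein of the microsomes, stood at 0.42 in Hereford (limma adjusted p = 0.0639) and at 0.42 in Holstein-Friesian (0.0682), and was above 0 on all 8 arrays, from 0.08 to 0.72. HSPA14, which works with DNAJC2 at the ribosome, stood at 0.19 and -0.14 with overlapping arrays. HSPA1L stood at -0.19 in Hereford, where 1 of its 4 readings was well above background, and in Holstein-Friesian 0 of 4 were. HSPA4, an Hsp110 protein like HSPH1, was read by 2 probes of the same transcript that disagreed. The brighter gave 0.45 in Hereford (limma adjusted p = 0.0644) and 0.06 in Holstein-Friesian (0.812), and the other 0.10 in Hereford (0.50) and -0.36 in Holstein-Friesian (0.0361), which passed.

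The other type A and type B DNAJ genes ranged widely. DNAJA4, a cytosolic partner of Hsp70 like DNAJA1, had Hereford ratios of 1.00, 0.55, 0.53 and 0.29, a mean of 0.59 (SD 0.29, limma adjusted p = 0.0744). In Holstein-Friesian it had 0.41, 0.07, -0.35 and -0.60, a mean of -0.12 (SD 0.45, limma adjusted p = 0.737). All Hereford arrays were above 0, and 1 of them overlapped with Holstein-Friesian. DNAJB6, which suppresses protein aggregation and is mutated in a limb-girdle muscular dystrophy, stood at 0.27 in Hereford and 0.29 in Holstein-Friesian (limma adjusted p = 0.17 and 0.159).

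DNAJB12, a J-protein of the endoplasmic reticulum membrane, was below 0 on all 8 arrays, with means of -0.45 and -0.47 (limma adjusted p = 0.172 and 0.167). The luminal J-proteins of the endoplasmic reticulum stood nearer to 0: DNAJB11 at 0.25 in Hereford and 0.13 in Holstein-Friesian, and DNAJB9 at 0.19 and -0.09. DNAJB2, which passes substrates to the proteasome, stood at -0.11 and 0.22. Both probes of DNAJB9 gave the same signs.

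None of the 17 type C DNAJ genes, the most diverse class, passed in either breed in limma (4 in Hereford and 6 in Holstein-Friesian had an unadjusted p under 0.05), and their medians were -0.037 in Hereford and -0.103 in Holstein-Friesian. DNAJC5, the cysteine string protein of vesicles, had Holstein-Friesian ratios of -0.23, -0.26, -0.31 and -0.50, a mean of -0.33 (SD 0.12, limma adjusted p = 0.0794), and -0.21 in Hereford. DNAJC24, which takes part in making diphthamide on a translation factor, had -0.67, -0.18, -0.53 and -0.85, a mean of -0.56 (SD 0.29, limma adjusted p = 0.0596), and 0.11 in Hereford. These were the members of the class with the smallest p over both breeds. DNAJC3, an inhibitor of the kinase PERK in the stressed endoplasmic reticulum, stood at -0.59 in Holstein-Friesian, but its array with bull 2 was above 0 (0.23).

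DNAJC21, of ribosome assembly, stood at -0.58 in Holstein-Friesian and was below 0 on all 4 arrays. DNAJC12 had the highest Hereford mean of the class, 0.69, with ratios of 0.07, 0.79, 1.13 and 0.77 (limma adjusted p = 0.068). DNAJC10, a disulphide reductase of the endoplasmic reticulum, stood at 0.20 in Hereford and DNAJC5G at 0.11, and both were above 0 on all 4 of its arrays. DNAJC14 at -0.18 and DNAJC18 at -0.32 were below 0 on all 4. The Hereford means of DNAJC2, DNAJC3, DNAJC5B, DNAJC11, DNAJC13, DNAJC16, DNAJC17, DNAJC19, DNAJC21 and DNAJC27 lay between -0.19 and 0.19. DNAJC27 varied most among bulls, from -0.45 to 1.27 in Hereford, and its 2 probes differed in sign on some arrays. DNAJC16 was not well above background in Holstein-Friesian (0 of 4 readings).

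BAG2, an inhibitor of the ubiquitin ligase CHIP, had Hereford ratios of -0.41, -0.51, -0.65 and 0.03 and Holstein-Friesian ratios of -0.82, -0.19, -0.99 and -0.42. Its means were -0.39 (SD 0.29, limma adjusted p = 0.164) and -0.60 (SD 0.37, 0.0547). All Holstein-Friesian arrays and 3 Hereford arrays lay below 0. BAG3, which pairs with HSPB8 to clear damaged proteins of the muscle Z-disc by autophagy, had -0.40 in Hereford (SD 0.29, limma adjusted p = 0.125) and -0.30 in Holstein-Friesian (SD 0.32, 0.245). BAG4 stood at -0.01 and 0.07.

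Of the Hsp90 genes, HSP90AA1, the inducible cytosolic form, had Hereford ratios of 0.79, 0.14, -0.27 and 0.31, a mean of 0.24 with a 95% interval of -0.10 to 0.58 in the limma fit, and a Holstein-Friesian mean of -0.05. HSP90B1, the Hsp90 of the endoplasmic reticulum, had 0.36, 0.09, 0.08 and 0.35 in Hereford, a mean of 0.22 (SD 0.16, limma adjusted p = 0.0936), and 0.12 in Holstein-Friesian (SD 0.05, 0.348). It was above 0 on all 8 arrays. In the same dye its Hereford value was 0.40 and passed (limma adjusted p = 0.0359), and its Holstein-Friesian value was -0.07.

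The small heat shock proteins, which hold unfolded proteins without using ATP and are abundant in muscle, gave no call. HSPB6, found at the contractile apparatus, had 0.89, 0.34, -0.48 and 0.39 in Hereford and 0.36, 0.19, -0.54 and 0.15 in Holstein-Friesian. The array with Limousin bull 3 was the only one below 0 in either breed, and that control bull is shared. HSPB3 stood at -0.22 and -0.46 (limma adjusted p = 0.47 and 0.136), HSPB8 at 0.15 and 0.08, and HSPB2 at -0.04 and -0.02. HSPBP1, an exchange factor of Hsp70, stood at -0.17 and -0.01, and HSPBAP1 at -0.03 and 0.04 with all arrays within 0.13 of 0. HSF2, a heat shock transcription factor, stood at -0.24 in Hereford and 0.22 in Holstein-Friesian (limma adjusted p = 0.351 and 0.393).

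The third question was what both marbled breeds share against Limousin. The 4 means per bull gave 0 of 47 members called in limma, with 18 at an unadjusted p under 0.05, against 0.598% of all probes called (0.322% higher, 0.275% lower) and 0.723% of the named genes (0.437% higher, 0.286% lower). HSPA5 came nearest, at 0.46 (SD 0.12, n = 4 bulls, limma adjusted p = 0.0564), with Hereford at 0.58 and Holstein-Friesian at 0.34. The largest mean was that of DNAJB1, 0.75 (SD 0.44, limma adjusted p = 0.114). It came mostly from 1 breed, with Hereford at 1.32 and Holstein-Friesian at 0.18. HSPA1A stood at -0.50 (SD 0.40, limma adjusted p = 0.195) and BAG2 at -0.49 (SD 0.28, 0.116). With the Limousin bull as a block over all 8 arrays, HSPA5 (adjusted p = 0.0355) and HSPA13 (0.42, 0.0331) passed in limma, with 5.33% of all probes. With median centring BAG2, DNAJB12, HSPA1A and HSPB3 were called lower instead, between -0.69 and -0.53, with 5.57% of all probes.

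The last question was whether the breeds differed from each other, as Holstein-Friesian minus Hereford, where a dye effect adds up. HSPA8 was the 1 member called, against 2.71% of all probes (1.15% higher, 1.56% lower) and 3.21% of the named genes (1.70% higher, 1.51% lower), at -0.92 with a 95% interval of -1.29 to -0.55 (limma adjusted p = 0.0341). HSPH1 differed by -1.43 (95% interval -2.24 to -0.62, limma adjusted p = 0.0715) and DNAJA1 by -1.20 (95% interval -1.81 to -0.58, 0.0593), which did not pass. DNAJB1 differed by -1.14 (limma adjusted p = 0.181) and HSPE1 by -0.43 (0.075). The 4 arrays of one breed did not overlap with those of the other in 5 members, DNAJA1, HSPA8, HSPH1, HSPE1 and DNAJC5G, which is 10.6% of the members against 14% of all probes.

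The block of the Limousin bull raised this count from 1 to 7, all lower in Holstein-Friesian: HSPA8 (adjusted p = 0.00815), DNAJA1 (0.0148), HSPH1 (0.02), HSPE1 (0.0249), DNAJC24 (0.0453), DNAJA4 (0.0463) and DNAJC5G (0.0476) in limma. That is 14.9% of the members, against 10% of all probes called under the block, 5.59% lower. With each breed read in the same dye as its Limousin bull, the difference of HSPA8 was -0.53 (limma adjusted p = 0.146), and no member passed, against 1.35% of all probes. With median centring 32 members were called, against 36.5% of all probes, 28.5% lower. HSPA8 kept its call without bull 1 (adjusted p = 0.047) but not without bull 2 (0.173), bull 3 (0.0884) or bull 4 (0.187), while its difference stayed between -0.94 and -0.90. Without bull 1 the count was 4, as DNAJA1 (adjusted p = 0.0391), HSPH1 (0.0308) and DNAJC12 (0.0449) passed in limma as well, and without bull 2, 3 or 4 it was 0. The share of all probes called without a bull is not given here, so these counts do not set the members apart from other genes.

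Dye was read in the Limousin bulls themselves, each in Cy5 on 1 slide and in Cy3 on the other. Of the 47 members 4 differed, against 750 of 17061 probes: HSPA1A was higher in Cy5 by 0.43 (limma adjusted p = 0.0414) and DNAJA1 by 0.33 (0.0398), and BAG3 by -0.30 (0.0423) and HSPB2 by -0.38 (0.0429) were lower in Cy5. Their breed ratios carry this dye or slide difference, and those of genes that did not pass may carry one too. In this check 9 members were above 0 in all 4 bulls, HSPA8 among them, and 6 below 0 in all 4. The share of all probes with the same sign in all 4 bulls is not given here, so these counts do not set the members apart. For DNAJB1 the difference of Cy5 over Cy3 was -0.08, for HSPH1 0.18, for HSPA5 0.10, for HSPA8 0.19 and for HSPE1 0.15, none of which passed.

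**Figure D3:**
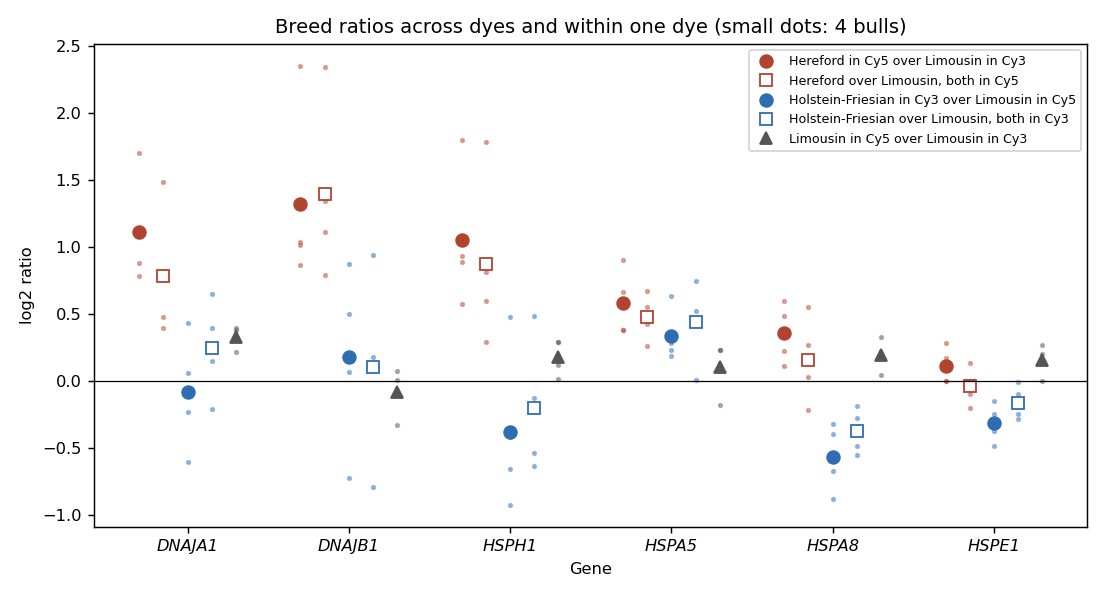
Log2 ratios of the 6 called genes across dyes (filled circles), within 1 dye (open squares) and of Limousin in Cy5 over Limousin in Cy3 (triangles); small dots are the 4 bulls. The Hereford ratio of DNAJB1 is 1.32 across dyes and 1.40 within Cy5, while that of DNAJA1 is 1.11 across dyes and 0.78 within Cy5.

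The levels of single bulls show how the breeds overlapped within a dye. For DNAJA1 the Holstein-Friesian bulls read 10.19, 9.19, 9.66 and 9.97 in log2 intensity in Cy3, on both sides of the Limousin bulls at 9.40 to 9.57. For DNAJB1 they read 10.09, 8.81, 9.22 and 9.41 against 9.14 to 9.60, and for HSPH1 10.51, 9.20, 9.55 and 9.98 against 9.83 to 10.10. In all of these genes the first Holstein-Friesian bull was the highest of its breed and the second the lowest. The Limousin bulls of 1 dye spanned less than either of the other breeds in DNAJA1, DNAJB1 and HSPH1.

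**Figure D4:**
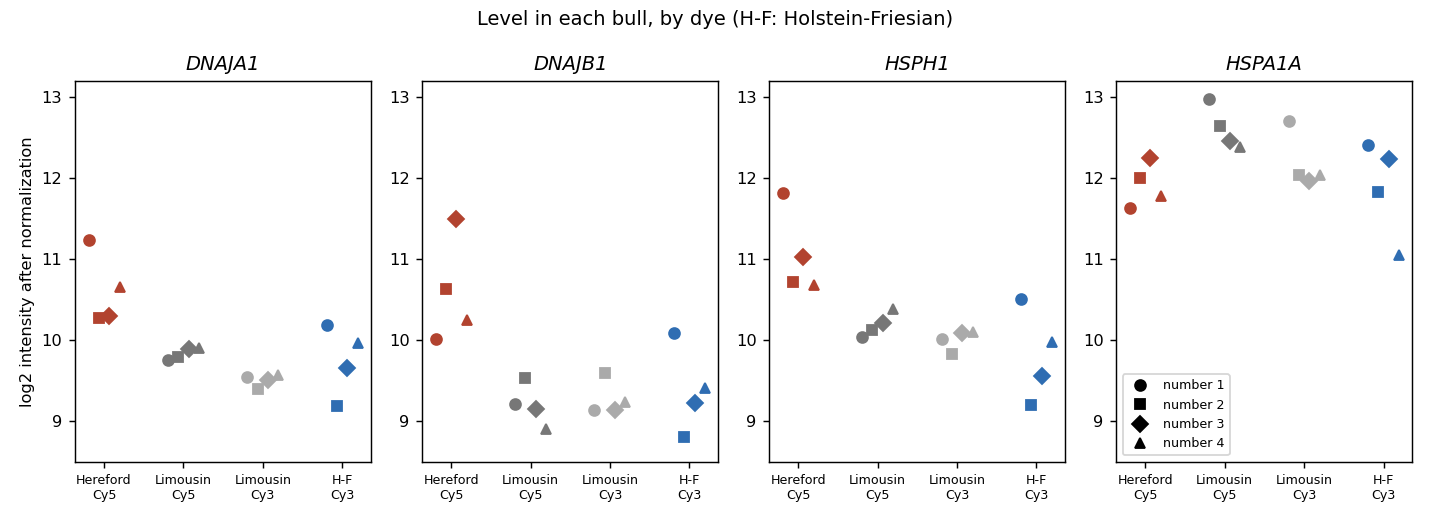
Log2 intensity after normalisation in each bull for DNAJA1, DNAJB1, HSPH1 and HSPA1A, by breed and dye, with the bull's number shown by the symbol. In the first 3 genes the 4 Hereford bulls lie above the Limousin bulls in Cy5, and in HSPA1A they lie below them, at 11.63 to 12.25 against 12.38 to 12.98.

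Genes that work beside these chaperones were counted from further lists. Of 14 partners of Hsp90 and Hsp70, 7 were measured and CHORDC1, an Hsp90 co-chaperone, rose in Hereford. Its ratios were 1.27, 0.77, 0.69 and 0.99, a mean of 0.93 (SD 0.26, limma adjusted p = 0.0127), and its Hereford value in the same dye was 0.81 (0.026). In Holstein-Friesian it stood at -0.14, and the difference of -1.07 passed (limma adjusted p = 0.0357). The other 6 measured partners, STIP1, PTGES3, FKBP4, FKBP5, PPID and SGTA, gave no call. CHORDC1 lost its Hereford call without bull 2 (adjusted p = 0.0629) or bull 4 (0.0915). Its difference between breeds was -0.82 in the same dye (0.0744) and did not pass without bull 2 (0.157), 3 (0.118) or 4 (0.202).

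Of 14 genes of the cytosolic chaperonin and of prefoldin, which delivers unfolded actin and tubulin to it, 12 were measured. In Hereford CCT5 fell by 0.32 (limma adjusted p = 0.0478). In Holstein-Friesian CCT6A fell by 0.54 (limma adjusted p = 0.0226) and CCT7 by 0.47 (0.0123), while PFDN5 rose by 0.45 (0.024). The breeds differed in CCT6A by -0.88 (limma adjusted p = 0.0292), which was -0.18 in the same dye (0.579) and did not pass without bull 2 (0.113), 3 (0.119) or 4 (0.187). The same-dye value kept its call for CCT7 only, at -0.40 (adjusted p = 0.0232); it was -0.05 for CCT5, -0.19 for CCT6A and 0.32 for PFDN5. Median centring turned PFDN5 to -0.20. CCT5 lost its call without any 1 bull (adjusted p from 0.079 to 0.165); CCT6A and PFDN5 lost their call without bull 2, 3 or 4 (0.0855 to 0.125), and CCT7 without bull 2 (0.096) or 4 (0.0624).

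Of 17 genes of folding in the endoplasmic reticulum and its stress response, 6 were measured. Across dyes all 6 were above 0 in Holstein-Friesian, with a median of 0.35 beside -0.015 over all probes. In the same dye CALR stood below 0 in that breed, at -0.09. SIL1, the exchange factor of HSPA5, rose in Holstein-Friesian by 0.56 (limma adjusted p = 0.0111), and DDIT3, the stress transcription factor CHOP, by 0.68 (0.0184). XBP1, a transcription factor of the unfolded protein response, rose in Hereford by 0.59 (limma adjusted p = 0.033) and stood at 0.42 in Holstein-Friesian (0.0934). In the same dye XBP1 passed in Holstein-Friesian at 0.64 (adjusted p = 0.0195) and not in Hereford at 0.37 (0.111). Median centring brought the Holstein-Friesian value of SIL1 to -0.0017 and that of DDIT3 to 0.34, and neither passed. XBP1 lost its Hereford call without any 1 bull (adjusted p from 0.0552 to 0.175), SIL1 its own without bull 2 (0.0692) or 3 (0.0593), and DDIT3 without bull 1 (0.0601), 2 (0.079) or 4 (0.122).

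Of 8 genes of mitochondrial folding and proteolysis, 6 were measured. Across dyes none was above 0 in Hereford, with a median of -0.21 beside 0.0075 over all probes. In the same dye CLPP stood at 0.06 and CLPB at 0.004 in Hereford. TRAP1, the Hsp90 of mitochondria, fell in Hereford by 0.62 (SD 0.15, limma adjusted p = 0.0142), and in the same dye its value was -0.67 (0.0143). LONP1, a mitochondrial protease, fell by 0.38 (limma adjusted p = 0.0396) but not in the same dye (-0.17, 0.294), and its difference between breeds of 0.60 (0.0493) was 0.17 in the same dye (0.46) and turned to -0.37 with median centring. TRAP1 did not pass with median centring (-0.41, adjusted p = 0.285) or without bull 2 (0.0963), 3 (0.0598) or 4 (0.0884), nor LONP1 without any 1 bull (0.0615 to 0.176). Of 6 Z-disc clients of BAG3 and the small heat shock proteins 4 were measured, and LDB3, a Z-disc scaffold, fell in Holstein-Friesian by 0.88 (SD 0.24, limma adjusted p = 0.00798), a call lost without bull 2 (0.0615) or 4 (0.058). The breeds differed in LDB3 by -0.84 (limma adjusted p = 0.0407), which was -0.40 in the same dye (0.223) and did not pass without any 1 bull (0.0661 to 0.234). None of the 4 measured genes among 7 other heat shock factor targets and regulators passed across dyes in limma. In the same dye SERPINH1, the collagen chaperone Hsp47, passed in Hereford at 1.13 (limma adjusted p = 0.0473), against 0.65 (0.119) across dyes.

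These are bulk samples, in which fewer cells of a type and less RNA per cell cannot be told apart. Of 10 slow fibre markers 7 were measured, and all 7 means were above 0 in both breeds. Across dyes 4 rose in Hereford and 1 in Holstein-Friesian, with medians of 1.37 and 0.88. In the same dye MYH7, MYL3 and ATP2A2 passed in Hereford, and MYH7, MYL2 and ATP2A2 in Holstein-Friesian. The list's medians on the Hereford arrays were 0.87, 1.59, 1.77 and 1.22. The lowest was with bull 1, where DNAJA1 and HSPH1 were highest, and the highest with bull 3, where DNAJB1 was highest. On the Holstein-Friesian arrays the list's medians were 1.89, 0.48, 0.93 and 0.01. There the highest was with bull 1, where the levels of DNAJA1, DNAJB1 and HSPH1 were also highest in that breed. The lowest was with bull 4, while these levels were lowest with bull 2. The summed intensity of the slow fibre markers in Cy5 was 431000 to 657000 in Hereford against 229000 to 363000 in Limousin. In Cy3 it was 401000 to 935000 in Holstein-Friesian against 186000 to 258000 in Limousin. Fast fibre markers, 6 of 10 measured, had medians of 0.34 in Hereford and -0.58 in Holstein-Friesian, where 2 fell, TNNC2 (-0.68) and PVALB (-1.90). In the same dye TNNC2 stood at -0.11 there (limma adjusted p = 0.479) and PVALB at -2.25 (0.00639), while MYH1 passed as higher at 0.56 (0.0185). The sums of the fast fibre markers in Holstein-Friesian, 646000 to 731000, overlapped with those of Limousin in Cy3, 594000 to 760000. Of 6 fibroblast markers 1 fell in Holstein-Friesian, the collagen gene COL3A1 (-2.53). The median over all 6 was -0.90, with sums in Cy3 of 13800 to 29600 against 32100 to 52900 in Limousin. The markers did not all go the same way, as 2 of the 6 stood above 0, DCN at 0.23 and PDGFRA at 0.27. Of 6 adipocyte markers 5 were measured, ADIPOQ not among them, and none was called in limma in either breed. FABP4 ran from -1.34 to 2.97 on the Hereford arrays and CIDEC from -0.92 to 2.92, both highest with bull 1. The adipocyte sums in Cy5 were 663 to 4000 in Hereford against 650 to 1930 in Limousin. In Cy3 they were 588 to 878 in Holstein-Friesian against 662 to 1870 in Limousin. With this spread between bulls, the lack of a call does not show equal levels. Of the 3 measured muscle fibre markers MB, the oxygen store myoglobin, fell in Holstein-Friesian by 1.02 (limma adjusted p = 0.0167) and differed between the breeds by -1.43 (0.0341). The medians of the 3 were 0.26 in Hereford, -0.55 in Holstein-Friesian and -0.82 for the difference, and MB in the same dye was -0.56 in Holstein-Friesian (0.115). Among the other marker lists 1 of 5 smooth muscle genes rose in Hereford, 1 of 4 measured lymphocyte genes rose in Holstein-Friesian, and no endothelial, macrophage or blood gene was called. The part of these cell types in the chaperone results was not tested.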

How the data were processed

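Total RNA of muscle was hybridised to 8 bovine 2-colour Agilent arrays on 2 slides, 1 breed per slide. Spot and background intensity were deposited as medians per channel, read by Feature Extraction 10.7.3.1, the Agilent software that the submitters' processing notes name. In the deposited table of values each entry was a log10 ratio, Cy5 divided by Cy3, and matched the scanner's own in 44407 of 44407 spots on each array within 1e-06. The series text calls the Holstein-Friesian arrays swapped, but its values have Limousin as numerator there, so every ratio was turned here to breed over Limousin.

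Background was corrected with normexp (offset 50) and each array normalised by loess (span 0.3, control spots weight 0) in limma 3.58.1 under R 4.3.3, with statmod 1.5.0, data.table (1.17.8), jsonlite 2.0.0 and matplotlib 3.10.9. Control and outlier spots (6 to 29 per array) were left out, and 42990 spots averaged to 21475 probes. A reading counted as well above background when a share of at least 0.5 of its spots was flagged so, and 17061 probes passed. Gene names were matched by accession through RefSeq (assembly ARS-UCD2.0; 8297 probes, 7788 genes). Per the file headers the array was designed on Btau_3.1, so no coordinates are given. No value column was left without a sample (0).

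Breed means were fitted over 8 arrays with lmFit and eBayes. The comparison of both marbled breeds used 4 means per Limousin bull. Tests were two-sided, with Benjamini-Hochberg adjustment over 17061 probes. The labels' source names give the same Limousin bull for arrays of 1 number, which pairs them; a random block for the bull (duplicateCorrelation, consensus 0.305) was an alternative. Levels and same-dye values came from loess followed by Aquantile scaling. The scripts were tested on simulated data. Intervals and p-values of the breed means rest on the spread among the arrays of these animals, pooled over both breeds and moderated by limma across probes. Outside the block, this fit does not model the Limousin bulls shared between arrays. The number of arrays limits the precision.

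Members and lists were chosen with earlier results of these data known. Named were all called members, the 2 of each family with the smallest moderated F p, a fixed set of well-known members where measured, and called genes of the related lists; other members were named after their values were seen. Alternatives were the deposited ratios, median centring, other filters, the block, 1 breed alone, the same dye (added for the difference after seeing the data), the mean over probes, and leaving out each bull number. Promoter motifs were not analysed here.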

Additional observations from a re-analysis of the deposited data

Results flagged for a closer look

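Over 42 groups of 4 arrays, 21 genes in each breed, 2 held a value far from the other 3 by Dixon's ratio, where about 1 in 20 groups is flagged by chance. DNAJB1 stood at 2.35 on the Hereford array with Limousin bull 3, with the others between 0.868 and 1.04. HSPD1 stood at 0.0773 on the Holstein-Friesian array with Limousin bull 3, with the others between -0.417 and -0.396. HSPA8 differed between the breeds, at -0.92 for Holstein-Friesian minus Hereford in limma (adjusted p = 0.0341), with 4 of 4 Hereford arrays above 0 and 4 of 4 Holstein-Friesian arrays below. In the same dye 3 of 4 Hereford values were above 0 and the difference was -0.53 (limma adjusted p = 0.146).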

How the results depend on the processing

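The count of members called in Hereford was 4, and became 2 with the deposited log10 ratios, 1 with median centring, 2 without a filter on dim probes, 0 with the Hereford arrays alone and 2 in the same dye, of which 1 was among the 4; without 1 bull number it ranged from 0 to 4. The Holstein-Friesian count of 2 became 3 with the deposited ratios and 3 with all 16 readings above background, with 1 of the 2 kept in each (HSPA8), 30 with median centring and 0 with that breed alone, and ranged from 0 to 2 without 1 bull number; the 2 called in the same dye were other genes. The count for both marbled breeds was 0, or 4 with median centring and 2 with the replicate block. The count for the difference was 1, or 2 with the deposited ratios, 32 with median centring (2 higher, 30 lower), 2 with all 16 readings above background and 7 with the replicate block, or 0 in the same dye, an alternative chosen after seeing the data, and ranged from 0 to 4 without 1 bull number. The block changed no call in either breed against Limousin among the members. The share of all probes called is not given here for the deposited ratios, the other filters, Hereford with median centring or a left-out bull number. Member counts under those settings therefore do not set the members apart from other genes.

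The Hereford median of 0.106 became 0.320 with median centring, 0.0207 without a filter and 0.0572 in the same dye (0.0416 to 0.0761 without 1 bull number). The Holstein-Friesian median of -0.0481 became -0.0823 with the deposited ratios, -0.602 with median centring, -0.0883 with all 16 readings, -0.133 in the same dye and -0.0742 with the mean over probes (-0.059 to -0.0337). That of both breeds, 0.0072, became -0.0976 with median centring (-0.0147 to 0.0283), and that of the difference, -0.117, became -0.976 with median centring and -0.218 with all 16 readings (-0.212 to -0.105). Median centring moved the median of all probes by itself, to 0.099 in Hereford, -0.199 in Holstein-Friesian and -0.358 in the difference. With it HSP90B1 in Holstein-Friesian turned from 0.12 to -0.50 (limma adjusted p = 0.0399), PFDN5 to -0.20 there and -0.68 in the difference, SIL1 to -0.0017 and LONP1 in the difference to -0.37. The cause of these shifts was not tested. No other named gene reversed, though values changed sign without a call, 21 of 128 with median centring, 9 of 64 in the same dye, 7 of 32 for the difference in the same dye and at most 6 of 128 under any other alternative. The called members kept their sign under every alternative run.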
